A study of Mus musculus with 4 samples.

Results

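Gene expression was measured in mouse liver for 9 genes of glycogen metabolism, out of 16593 genes named on the array. They are Ppp1r3b and Ppp1r3c, which encode targeting subunits of protein phosphatase 1, the enzymes Gys2, Pygl, Gbe1, Ugp2 and Gyg, the transporter Slc37a4 and the kinase Gsk3b. The members were found by gene symbol in the platform annotation, which gave 11 of the 25697 probes of the scanner table, and the set was put together because Ppp1r3b and Ppp1r3c were lower in knockout liver. The differences between knockout and control given for these 9 genes are therefore a description, with no test.

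The study compared 2 control samples of liver, Shp2Floxed/Floxed and labelled wild type, with 2 knockout samples, Shp2hep-/-, positive for albumin-Cre. Both groups carry floxed alleles of Ptpn11, the gene for the phosphatase Shp2. The albumin promoter drives Cre in hepatocytes, and whether the other cells of a knockout liver keep Shp2 was not tested. As a check of the labels, Ptpn11 differed by −1.33 (SE 0.18, limma adjusted p = 0.0599) on its brightest probe, with both knockouts below both controls, at 12.75 and 12.85 against 11.38 and 11.56. Where the probes lie relative to the deleted sequence was not analysed here. The mice were 2 months of age and had not been fasted. The 4 arrays lay on 1 Illumina BeadChip, controls at neighbouring positions and knockouts at the next ones, so that position and genotype cannot be told apart. The labels do not say whether the samples of a group came from separate mice, and p-values measure only the spread between these samples.

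Liver stores glucose as glycogen after a meal and releases it between meals. Glycogen synthase builds the polymer and is active when dephosphorylated, while glycogen phosphorylase breaks it down and is active when phosphorylated. Protein phosphatase 1 acts on both enzymes, and a family of targeting subunits carries its catalytic subunit to the glycogen particle. In liver the main ones are GL, encoded by Ppp1r3b, and PTG, encoded by Ppp1r3c. Kinases such as glycogen synthase kinase 3 and phosphorylase kinase act in the opposite direction, under the control of insulin, glucagon and adrenaline.

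Of the 9 members, 8 had a probe above background, and each of these 8 was detected on all 4 arrays. The exception was Gbe1, the glycogen branching enzyme, whose single probe stayed at background on all 4, with scanner intensities of 213 and 245 units in control and 209 and 226 units in knockout. A probe at this level says nothing of the gene: the probe of Alb, which encodes albumin, read 263 and 259 units in control and 247 and 277 units in knockout, and was detected on 3 of the 4 arrays. Among the 8 measured members, 6 had both knockout arrays below both control arrays and 0 had both above. Such a pattern downwards was found for 23.8% of all 9311 rows tested, and upwards for 24.8%. Since the set was chosen from this contrast, nothing is read from the count. Values below are log2 intensities after background correction and quantile normalization, and a difference is knockout minus control with the standard error (SE) of the limma fit, 2 arrays per group.

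**Figure D1:**
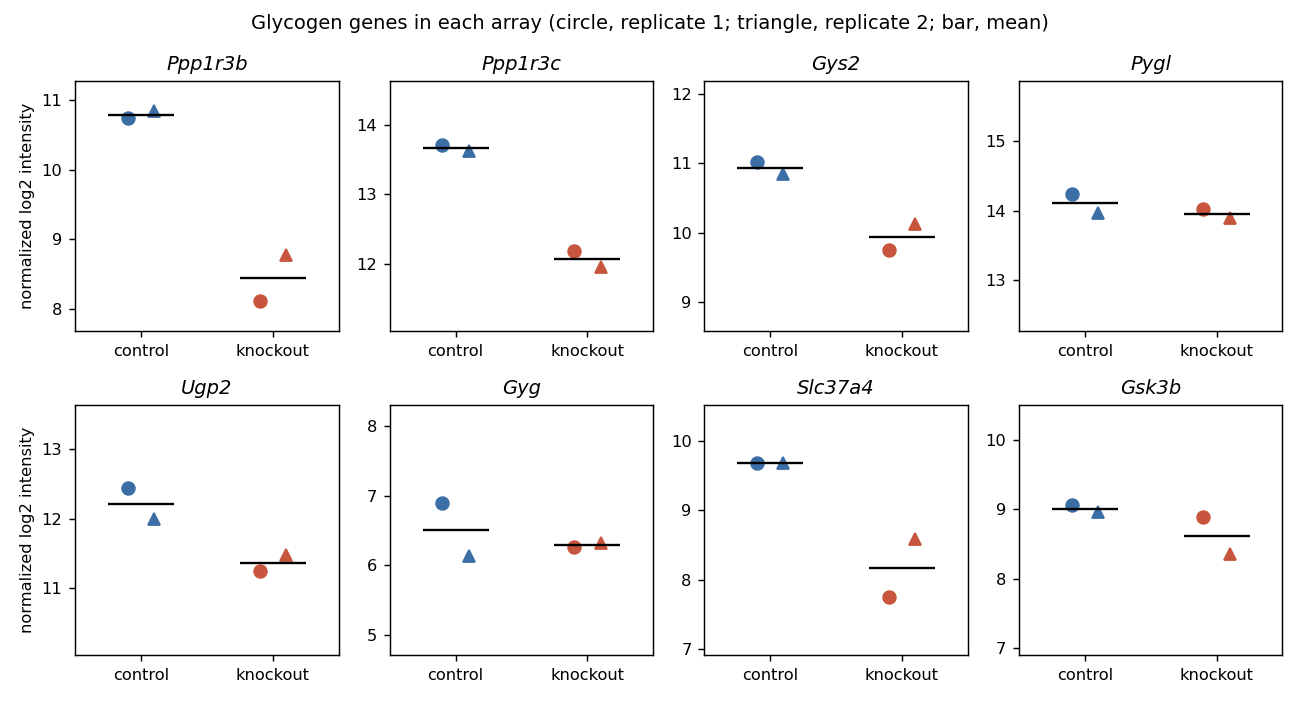
Normalized log2 intensity (y axis) of the 8 measured glycogen genes in control and knockout liver, each panel spanning the same range of log2 units. Points are single arrays and black bars are group means; in Ppp1r3b, Ppp1r3c, Gys2, Ugp2, Slc37a4 and Gsk3b both knockout points lie below both control points, while in Pygl and Gyg the groups overlap.

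Ppp1r3b, the GL subunit, was measured by the probe ILMN_2626098. Its log2 intensity was 10.74 and 10.84 in control and 8.12 and 8.78 in knockout. The control values lay within 0.10 of each other, the knockout values 0.66 apart, and the highest knockout value was 1.97 below the lowest control value. The difference was −2.35 (SE 0.27), 5.09-fold lower, so that the knockout mean stood at 19.7% of control. In the scanner table, before background was subtracted, the 4 intensities were 1904 and 1934 units in control and 493 and 661 units in knockout. Their ratio was 30.1% of control, a smaller contrast than after background correction.

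Ppp1r3c, the PTG subunit, was measured by ILMN_2667091. The log2 intensity was 13.71 and 13.62 in control and 12.18 and 11.95 in knockout. Both groups were tight, with gaps of 0.09 between the controls and 0.23 between the knockouts, and the groups were 1.45 apart at their nearest values. The difference was −1.61 (SE 0.19), 3.04-fold lower. This bright probe barely depended on background, with scanner intensities of 14122 and 13008 units in control and 4954 and 4195 units in knockout, or 33.7% of control against 32.9% after normalization. Ppp1r3b and Ppp1r3c were the 2 members among the 74 rows called changed over all 9311 at an adjusted p under 0.05. Both were also called under 8 of 10 other ways of processing that kept all arrays, but not with every probe on its own or from the deposited processed intensities, and in 0 of 4 fits that left out an array. In the downward direction 0.344% of rows were called. Because the members were picked on this contrast, nothing is read from their calls or from how often these recur. The order of the knockout arrays differed between the 2 genes, replicate 1 being the lower for Ppp1r3b and replicate 2 for Ppp1r3c.

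Gys2, the liver isoform of glycogen synthase on which these subunits act, was measured by ILMN_2924504 at 11.01 and 10.85 in control and at 9.76 and 10.13 in knockout. The groups did not overlap, with 0.72 between the nearest values. The difference was −0.99 (SE 0.21), 1.99-fold lower, and the gene was not among the rows called as reported. Ugp2 encodes UDP-glucose pyrophosphorylase, which makes the glucose donor of the synthase. Its probe ILMN_1244631 read 12.44 and 12.00 in control and 11.25 and 11.48 in knockout, a difference of −0.86 (SE 0.23), 1.81-fold lower. Here the controls were 0.45 apart, and the nearest values of the groups 0.52. Ugp2 was not called either. Without background correction, and with an intensity trend and robust variance, Gys2, Ugp2 and Slc37a4 were each called, which was 2 of the 10 other ways that kept all arrays. Those 2 ways called 321 and 367 of all 9311 rows, against 74 as reported. Nothing is read from these calls, because the members were picked on this contrast.

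Gyg encodes glycogenin, the protein primer on which a glycogen particle starts. Its 2 probes were both dim and gave opposite signs. On ILMN_2661635, the brighter probe and the one that stands for the gene, log2 intensity was 6.89 and 6.13 in control and 6.27 and 6.32 in knockout, with the knockouts between the controls. On ILMN_2686069 it was 6.16 and 5.96 in control and 6.63 and 6.29 in knockout, with both knockouts above both controls. The differences were −0.22 (SE 0.29) and 0.40 (SE 0.22), and no direction can be given for this gene.

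Pygl, the liver glycogen phosphorylase that releases glucose 1-phosphate, was the breakdown enzyme of the set. The brighter of its probes, ILMN_2859847, read 14.24 and 13.98 in control and 14.02 and 13.89 in knockout, and the groups overlapped. The difference was −0.15 (SE 0.20), or 90.1% of control. The further probe, ILMN_2615015, read 11.96 and 11.81 in control and 11.67 and 11.63 in knockout, with both knockouts below both controls. Its difference was −0.24 (SE 0.19). Both probes placed the Pygl mean in knockout within 1.18-fold of control.

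Slc37a4 encodes the transporter that carries glucose 6-phosphate into the endoplasmic reticulum, where it is split to free glucose. On ILMN_2684307 the controls had nearly the same log2 intensity, 9.680 and 9.685, and the knockouts were 7.75 and 8.59. The knockout values lay 0.84 apart, the widest gap between knockouts among the 8 measured members, and still 1.09 below the nearest control. The difference was −1.51 (SE 0.31), 2.84-fold lower, and it was not called as reported. Gsk3b, the kinase that phosphorylates and restrains glycogen synthase, read 9.06 and 8.96 in control and 8.88 and 8.35 in knockout on ILMN_2593888. The groups were 0.07 apart at the nearest values, less than the 0.54 between the knockouts, and the difference was −0.39 (SE 0.24). Of the 6 members with both knockouts below both controls, knockout replicate 1 was the lower array for 4, namely Ppp1r3b, Gys2, Ugp2 and Slc37a4.

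**Figure D2:**
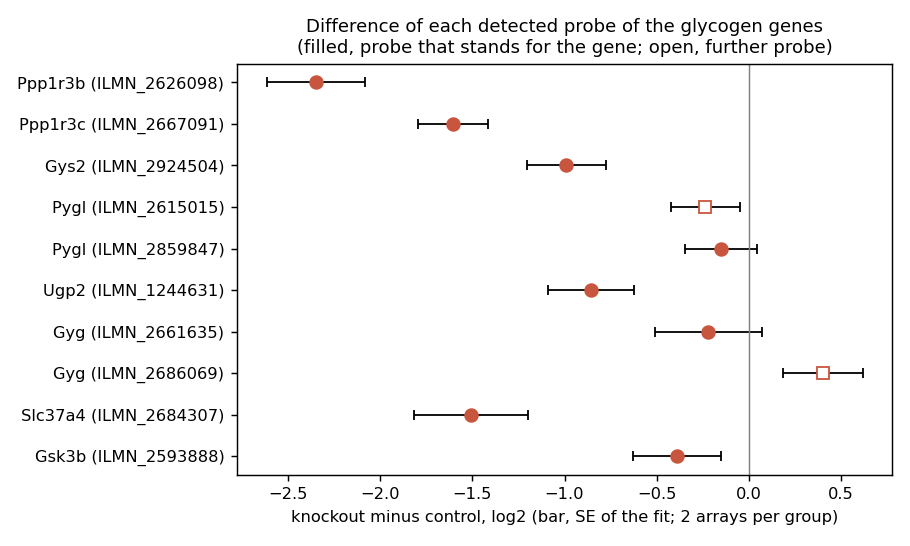
Difference between knockout and control on the log2 scale (x axis) for each of the 10 detected probes of the glycogen genes (y axis), with the SE of the fit as bars. Ppp1r3b lies lowest at −2.35, the 2 probes of Pygl lie together near 0, and the 2 probes of Gyg fall on either side of 0.

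Across the whole array, a fitted difference of −1 or lower was found in 170 of 9311 rows, or 1.83%, and 3 of the 8 measured members were among them. A share of 26.1% of rows had a lower difference than Gyg, 32.7% a lower one than Pygl and 14.3% a lower one than Gsk3b. For Ppp1r3b this share was 0.279%, for Ppp1r3c 0.591%, for Slc37a4 0.698%, for Gys2 1.84% and for Ugp2 2.68%. These shares describe the members' places in the contrast that chose them.

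Between 11542 and 12328 probes were detected per array, and Pearson's r across all rows was 0.984 for the pair of controls, 0.982 for the pair of knockouts and 0.964 to 0.974 for a control with a knockout; genes are not independent replicates. Of 10 hepatocyte markers, 9 passed the filter and 0 were called by limma, nor had any an unadjusted p under 0.05, with 3 above 0 and 6 below; apart from the dim probe of Alb, their differences lay between −0.37 (Hnf4a) and 0.11 (Apoa1). The probes of Apoa1, Ttr and Cyp2e1 read between 52184 and 62084 units on all arrays, and whether they were saturated was not tested. The probe of Tat stayed at background on all 4 arrays. Of 10 measured macrophage markers 9 were above 0 (median 0.79), with a summed level of 13.14 and 12.32 in control against 13.66 and 13.56 in knockout. Of 3 measured red cell markers 3 were above 0 (median 1.29), and of 6 stellate and matrix markers 6 (median 0.53). None of the macrophage, red cell or stellate markers was called by limma. An unadjusted limma p was under 0.05 for 5 macrophage, 3 red cell and 3 stellate markers, all higher in knockout. Of 3 measured neutrophil markers, S100a8 was at least 2.97-fold and S100a9 at least 1.47-fold higher in knockout (limma adjusted p = 0.0227 and 0.0600), neither being above background on a control array, while Elane differed by −0.22. Of 3 measured lymphocyte markers 1 was above 0. This was Cd79b, at least 1.63-fold higher in knockout (limma adjusted p = 0.101) and above background on the knockout arrays alone. Ptprc, the marker of all leukocytes, was at least 1.33-fold lower (limma adjusted p = 0.106), with 0 knockout arrays above background, and Nkg7 differed by −0.04. Of 8 endothelial markers 3 were above 0, of 2 measured cholangiocyte markers 0, and of 2 measured adipocyte markers 1. Of 6 markers of muscle, which has glycogen enzymes of its own, 5 did not pass the filter, Acta1 and Ckm among them; a dim probe of Actn3 was detected on all 4 arrays, at 7.45 and 6.15 in control and 6.76 and 6.33 in knockout. In bulk tissue, fewer cells of a type and less RNA per cell cannot be told apart, and the part of these other cells in the values of the glycogen genes was not tested.

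The sequence upstream of the start site is shown for 3 members that lay below control in both knockouts, Ppp1r3c, Slc37a4 and Ugp2. It is also shown for Pygl, whose groups overlapped on its brighter probe, so that the letters can be compared. The RefSeq promoter table of build GRCm38.p6 had entries for 7 of the 9 members, 10 in all, each with 250 bases before and 50 after a start site; Ppp1r3b and Gys2 had no entry. Where a gene had several start sites, the outermost is printed. Capitals mark any of 6 motifs searched on both strands: the E-box CACGTG, the cAMP response half-site TGACG, the forkhead site GTAAACA, the nuclear receptor half-site AGGTCA, the CCAAT box CCAAT and the TATA box TATAAA. Ppp1r3c lies at chr19:36736555-36736854 on the minus strand, Slc37a4 at chr9:44396696-44396995 on the plus strand, Ugp2 at chr11:21371218-21371517 on the minus strand and Pygl at chr12:70227634-70227933 on the minus strand. Each is written 5′ to 3′ along its gene.
Ppp1r3c: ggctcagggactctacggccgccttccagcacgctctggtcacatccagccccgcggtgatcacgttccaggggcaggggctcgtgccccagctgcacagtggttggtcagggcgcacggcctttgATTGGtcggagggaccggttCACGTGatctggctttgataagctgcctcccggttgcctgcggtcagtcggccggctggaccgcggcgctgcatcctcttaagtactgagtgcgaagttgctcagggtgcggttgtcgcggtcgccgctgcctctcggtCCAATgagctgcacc
Slc37a4: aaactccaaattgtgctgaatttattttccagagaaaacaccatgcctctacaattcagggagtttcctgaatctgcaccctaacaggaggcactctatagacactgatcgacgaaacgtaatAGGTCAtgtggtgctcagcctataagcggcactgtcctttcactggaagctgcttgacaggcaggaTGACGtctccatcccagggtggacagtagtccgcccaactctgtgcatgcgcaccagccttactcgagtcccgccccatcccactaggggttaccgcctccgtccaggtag
Ugp2: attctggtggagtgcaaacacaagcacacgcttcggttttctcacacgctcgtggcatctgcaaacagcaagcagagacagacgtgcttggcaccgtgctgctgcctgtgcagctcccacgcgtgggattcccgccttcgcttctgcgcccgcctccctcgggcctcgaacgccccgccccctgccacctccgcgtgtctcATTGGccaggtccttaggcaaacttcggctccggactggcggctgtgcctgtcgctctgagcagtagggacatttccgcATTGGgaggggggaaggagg
Pygl: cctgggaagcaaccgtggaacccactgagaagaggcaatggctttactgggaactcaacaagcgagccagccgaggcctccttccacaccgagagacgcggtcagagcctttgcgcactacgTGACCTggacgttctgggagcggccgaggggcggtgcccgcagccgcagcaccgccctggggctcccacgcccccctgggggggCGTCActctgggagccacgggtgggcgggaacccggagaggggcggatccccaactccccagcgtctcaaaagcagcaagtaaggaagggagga

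The Ppp1r3c promoter held 1 E-box, whose first base lies at position −104 with the start site counted as 0, and 2 CCAAT boxes. An E-box was present in 7.15% of all 32851 promoters of the table, and among the 10 entries of the members the other was that of Gyg, where its last letters overlap a TGACG half-site. The printed Slc37a4 promoter held 1 TGACG half-site and 1 AGGTCA half-site. The printed Pygl promoter held 1 of each as well, so that these letters do not separate the 2 printed windows. Of the Slc37a4 entries not printed, 1 held 2 TGACG and 0 AGGTCA half-sites, and the other held neither. Of all promoters, 20.8% hold TGACG and 16.3% hold AGGTCA. The printed Ugp2 promoter held 2 CCAAT boxes, and the Ugp2 entry not printed held 0. At least 1 CCAAT box was found in 37.4% of promoters. No entry of a member held the forkhead letters GTAAACA, present in 3.65% of promoters. None of the 4 printed windows held the TATA letters, present in 13.6%. These letters did occur in an entry of Slc37a4 that is not printed, with the first base at −32. They also occurred in the entry of Gsk3b, on the opposite strand at −117. A match of letters is a description and not a binding site, and a window without a match says nothing of the factor.

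The genes whose 4 log2 values, centred on their mean, lay nearest to those of the 2 phosphatase subunits were sought among the other 8578 genes tested. Likeness was the root mean square distance over the 4 arrays. Nearest to Ppp1r3b was Nrg4, a ligand of the epidermal growth factor family, at a distance of 0.15, with log2 values of 9.88 and 9.92 in control and 7.09 and 8.17 in knockout. It was followed by Tcim, by Atp6v1d, a subunit of the vacuolar proton pump, by Thrsp, a regulator of lipogenesis, and by Slc13a2, a dicarboxylate transporter that was not above background in knockout, all at distances of 0.25 to 0.26. Nearest to Ppp1r3c were Saa4, a serum amyloid A protein, at 0.09, Pkdcc, a secreted kinase, at 0.10, the ribosomal protein gene Rpl29 at 0.11, Tsc22d3, a gene induced by glucocorticoids, at 0.12, and Agbl5, a tubulin-modifying carboxypeptidase, at 0.13. Agbl5 too was not above background in knockout. The distance between Ppp1r3b and Ppp1r3c themselves was 0.49. With 4 arrays in 2 groups, these genes mostly share the size of their difference with the member they resemble.

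Around the 9 members, 71 further genes of glycogen regulation were listed from textbook biology in 5 groups, with earlier results of these data known. Probes were found for 62, and 46 passed the filter on dim probes. Of the 46, 1 gene, Epm2aip1, was called lower in knockout and 0 were called higher by limma's test over all rows, which called 0.795% of rows in either direction. At an unadjusted p under 0.05 there were 5 lower and 7 higher, beside 16.5% of all rows in either direction. The median difference of the 46 genes was 0.02, beside 0.00 for all 8579 genes tested, with 23 genes above 0 and 23 below.

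**Figure D3:**
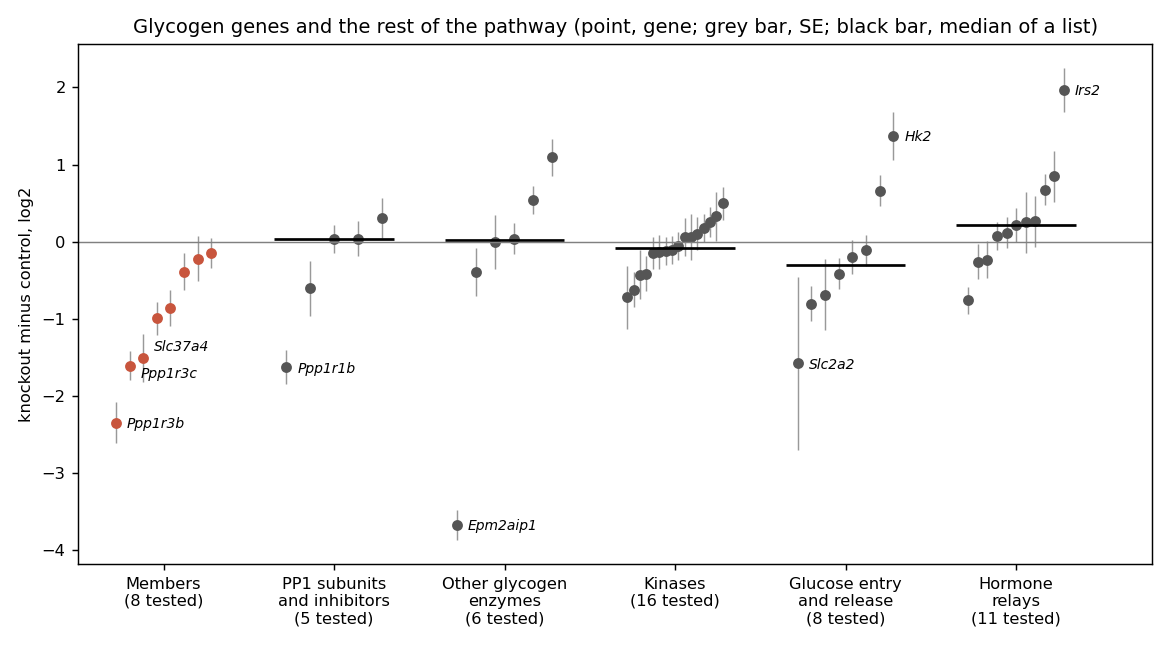
Difference between knockout and control on the log2 scale (y axis) for the measured glycogen genes and for the 5 lists of other pathway genes (x axis); points are genes, grey bars the SE of the fit and black bars the median of a list. The medians of the lists lie between −0.31 and 0.22, and among the genes of these lists Epm2aip1, Ppp1r1b at −1.63, Irs2 at 1.97 and the unevenly replicated Slc2a2 stand farthest from 0; Epm2aip1, not above background in knockout, is drawn at its fitted difference, for which the text gives a bound.

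Other parts of the phosphatase complex showed no called gene among 5 measured (median 0.04; by unadjusted p, 1 lower and 0 higher). Ppp1ca, the alpha catalytic subunit that the targeting subunits bind, read 12.48 and 12.46 in control and 12.60 and 12.41 in knockout on its brightest probe, a difference of 0.04 (SE 0.18). Its further probes differed by −0.23 and 0.21. Ppp1cb, the beta catalytic subunit, differed by 0.30 (SE 0.26) and Ppp1r2, which encodes phosphatase inhibitor 2, by 0.04 (SE 0.23), whereas Ppp1cc, the gamma subunit, differed by −0.61 (SE 0.36) and was detected on 1 array of each group. Ppp1r1b, which encodes the phosphatase inhibitor DARPP-32, read 8.72 and 9.14 in control and 7.39 and 7.22 in knockout. Its difference was −1.63 (SE 0.22, limma adjusted p = 0.0578), and over the 9 other settings with all arrays and 1 value per gene the adjusted p ran from 0.00958 to 0.117, under the threshold in 4. A further probe of Ppp1r1b, detected on 3 arrays, differed by −0.14. Of the remaining targeting subunits, the probes of Ppp1r3a and Ppp1r3f were each detected on 1 array only and were not tested, and Ppp1r3d, Ppp1r3e and Ppp1r3g were not analysed here.

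Among 6 measured enzymes and cofactors, 1 was lower and 0 were higher (median 0.02; by unadjusted p, 1 lower and 2 higher). The lower one was Epm2aip1, which encodes a protein that binds laforin, the glycogen phosphatase mutated in Lafora disease. On the probe ILMN_2895177 it read 9.30 and 8.98 in control and was not above background in knockout, at 5.48 and 5.46. It was at least 10.2-fold lower (limma adjusted p = 0.0136); such a bound replaces a value of the dim group by that of the dimmest detected probe of its array, where that is higher. A further probe, ILMN_1256740, read 6.93 and 6.79 in control and was likewise not above background in knockout, at 5.39 and 5.59, at least 2.10-fold lower. The third, ILMN_2699995, was detected on every array at 6.37 and 7.17 in control and 6.68 and 6.75 in knockout, a difference of −0.06 (SE 0.31). The probes thus disagreed, 2 against 1. When only probes detected on all arrays were used, the third probe stood for the gene and its adjusted p was 0.945, while under the other 8 settings that kept all arrays and gave 1 value per gene it was called, with adjusted p from 0.000257 to 0.0308. Stbd1, which tethers glycogen to membranes, differed by 1.09 (SE 0.25, adjusted p = 0.143), and Gaa, the lysosomal glucosidase that degrades glycogen, by 0.54 (SE 0.18), the knockouts lying above the controls in both. Pygb, the brain isoform of phosphorylase, differed by −0.39 (SE 0.31). Pgm1, a phosphoglucomutase, differed by 0.04 (SE 0.20).

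**Figure D4:**
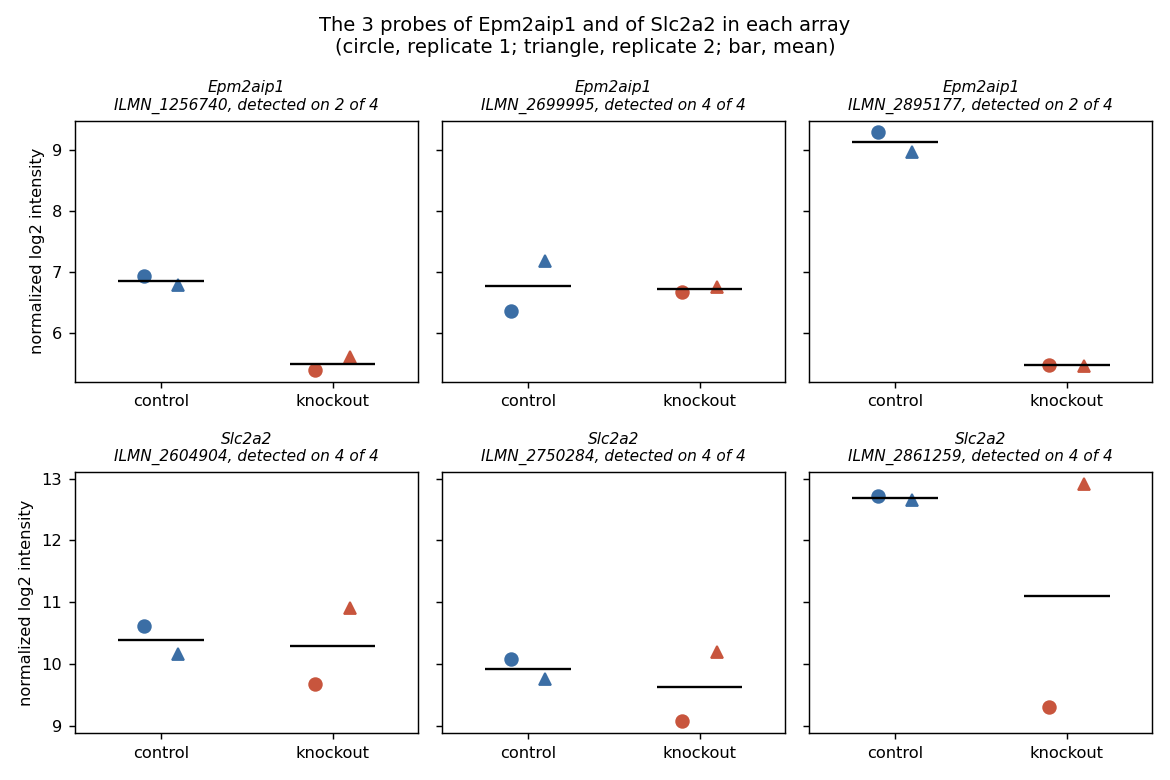
Normalized log2 intensity (y axis) of each of the 3 probes of Epm2aip1 and of Slc2a2 in control and knockout liver; points are arrays and bars are group means. For Epm2aip1 the knockouts lie below the controls on 2 probes and between them on the other, and for Slc2a2 knockout replicate 1 is the lowest array on all 3 probes.

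None of the 16 measured kinases and kinase subunits was called (median −0.08; by unadjusted p, 1 lower and 0 higher). The largest fitted differences were those of Gsk3a, the alpha form of glycogen synthase kinase 3, at −0.72 (SE 0.41) with controls of 6.15 and 7.32, of the phosphorylase kinase subunit genes Phka1 at −0.62 (SE 0.23) and Phkb at 0.50 (SE 0.21), and of the calmodulin gene Calm2 at −0.43 (SE 0.31). A further dim probe of Phka1 differed by 0.09, and the mean of its probes by −0.27. Phka2, a further phosphorylase kinase subunit gene, differed by 0.26 (SE 0.19) on its brightest probe and by 0.23 and 0.12 on further probes. Prkaca, the alpha catalytic subunit of cAMP-dependent protein kinase, differed by −0.06 (SE 0.19) on its brightest probe and by 0.26 on a further detected probe.

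None of 8 measured genes of glucose entry, phosphorylation and release was called (median −0.31; by unadjusted p, 1 lower and 2 higher). Slc2a2, which encodes the liver glucose transporter GLUT2, separated the knockout samples from each other more than the groups. On its brightest probe, ILMN_2861259, log2 intensity was 12.71 and 12.66 in control, 9.30 in knockout replicate 1 and 12.92 in knockout replicate 2. On the further probes, too, knockout replicate 1 was the lowest array, at 9.67 and 9.07, and knockout replicate 2 the highest, at 10.90 and 10.19. The fitted difference was −1.58 (SE 1.12, adjusted p = 0.545), and it was 0.23 without knockout replicate 1 and −3.39 without knockout replicate 2. In the same knockout replicate 1 the glucose 6-phosphate transporter gene Slc37a4 was also the lower of the knockouts, as given above. G6pc, the catalytic subunit of glucose 6-phosphatase, showed the reverse order, with 13.50 and 13.65 in control, 13.58 in knockout replicate 1 and 12.19 in knockout replicate 2, and a difference of −0.69 (SE 0.46). Hk2, a hexokinase, read 7.61 and 7.07 in control and 8.38 and 9.05 in knockout, a difference of 1.37 (SE 0.31, adjusted p = 0.147), and Khk, ketohexokinase, differed by −0.80 (SE 0.23, adjusted p = 0.195) and by −0.88 on a further probe.

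Hormone receptors and relays had no called gene among 11 measured (median 0.22; by unadjusted p, 1 lower and 3 higher). Irs2, an insulin receptor substrate, read 7.993 and 8.001 in control and 10.34 and 9.59 in knockout, with a limma adjusted p of 0.0653. Pik3r1, a regulatory subunit of phosphatidylinositol 3-kinase, read 12.00 and 12.03 in control and 11.29 and 11.22 in knockout, a difference of −0.76 (SE 0.18, adjusted p = 0.147), with −0.59 on a further detected probe. Adcy6, an adenylate cyclase gene, differed by 0.85 (SE 0.33), Gcgr, the glucagon receptor gene, by 0.22 (SE 0.22), and Pde3b, a phosphodiesterase gene detected on the knockout arrays alone, was at least 1.20-fold higher there (adjusted p = 0.212). Probes of Insr, Akt1 and Akt2 were not above background on any array and were not tested.

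**Figure D5:**
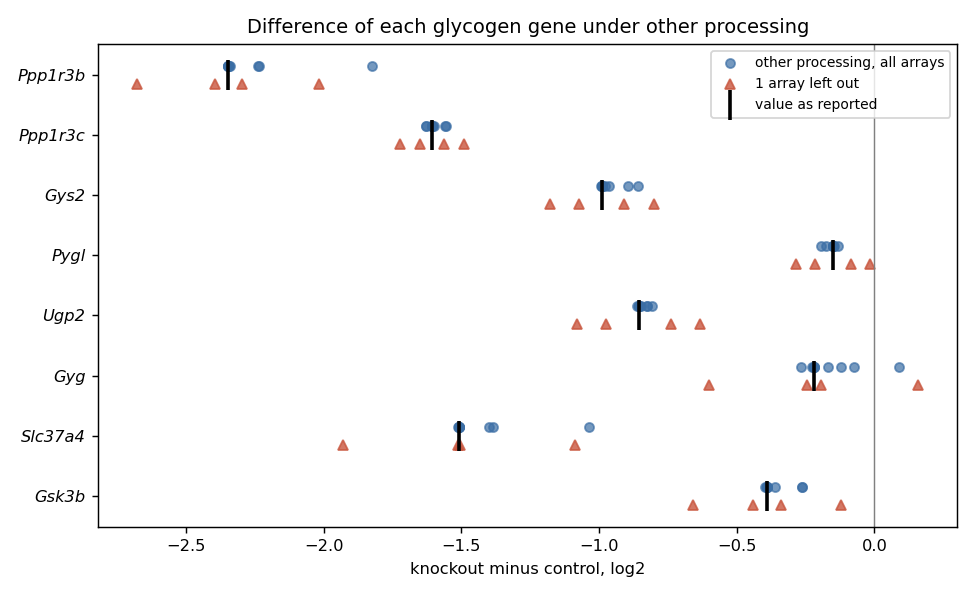
Difference between knockout and control on the log2 scale (x axis) of the 8 measured glycogen genes (y axis) as reported (black line), under 10 other ways of processing that kept all arrays (circles) and with each array left out in turn (triangles). Ppp1r3c stays between −1.72 and −1.49, Ppp1r3b between −2.68 and −1.83, and Gyg lies on both sides of 0.

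Under 14 other ways of processing, 10 with all arrays and 4 with an array left out, the difference of Ppp1r3c moved least among the 3 lowest members, from −1.72 to −1.49. That of Ppp1r3b ran from −2.68 to −1.83, the smallest size being the one without background correction. Slc37a4 ran from −1.93 without knockout replicate 2 to −1.04 without background correction, Gys2 from −1.18 to −0.80, Ugp2 from −1.08 to −0.63 and Gsk3b from −0.66 to −0.12. A direction that groups without overlap fix cannot change when an array is left out, so that it is no sign of stability. Pygl ran from −0.29 to −0.02. Gyg turned to 0.09 with the mean of its probes and to 0.16 without control replicate 1. The controls were numbered here in the order of their array positions, as their labels carry no replicate number.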

How the data were processed

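Total RNA of 4 mouse liver samples, 500 ng each per the labels, was amplified, labelled with biotin and hybridized to Illumina arrays. The authors deposited a scanner table with the mean bead intensity of 25697 probes and a detection p-value per array, per the file headers; all arrays have a mean intensity of 1187 units, and the step that scaled them is not given in the sources used here. Rows without a probe identifier, 4 in number, were left out. A processed intensity table, also deposited, is linear, with 25.3% to 25.4% of values below 0, medians of 31.58, 31.61, 31.62 and 31.63 and the same probe order as the scanner table (Spearman correlation 1); its background and normalization steps are unknown, and it served as an alternative.

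The limma function neqc (limma 3.58.1, R 4.3.3, offset 16) corrected the scanner intensities for background and quantile-normalized them. Probes with detection p under 0.05 on at least 2 arrays were kept, 12197 in all, and the passing probe of highest mean stood for its gene, which gave 9311 rows: 8579 genes and 732 probes with no symbol. Symbols came from the platform annotation (23978 probes with 1 symbol, 0 with several, 1719 with none). The groups were compared with lmFit and eBayes, two-sided, with Benjamini-Hochberg adjustment over all rows and a threshold of 0.05; the fit had 2 residual degrees of freedom and 3.37 prior ones, and was tested on simulated data. The number of arrays limits the precision. The members and lists were chosen with earlier results of these data known. Named were all 9 members and, from each pathway list, the called genes and otherwise up to 4 of the largest fitted differences. The 5 genes nearest in profile to Ppp1r3b and to Ppp1r3c were also named. Ppp1ca, Pgm1, Prkaca, Phka2 and Gcgr were named for their role after their values were seen. Background correction, offset, normalization, filter, probe rule, variance model, source table and each array were varied.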

Additional observations from a re-analysis of the deposited data

How the results depend on the processing

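The rows called over the whole array numbered 74, 42 higher and 32 lower in knockout, and depended on the processing. Without background correction 321 were called (191 higher, 130 lower), with an offset of 50 in place of 16 there were 160 (88 higher, 72 lower), and with an intensity trend and robust variance 367 (221 higher, 146 lower). With every probe on its own 46 were called (22 higher, 24 lower), and from the deposited processed intensities 15 (6 higher, 9 lower). With an array left out the count ran from 0 to 27 in all, from 0 to 13 higher and from 0 to 16 lower. It was 27 without either control, and 0 without either knockout replicate, where 1179 and 1511 rows had an unadjusted limma p under 0.05. The lone sample of a group is then assumed to vary like the other group. Of the other glycogen genes 1 was called as reported, 5 without background correction, 3 with the offset of 50, 2 when detection on all arrays was asked, 7 with trend and robust variance and 0 to 1 with an array left out; the 0 arose without either knockout replicate, where 11 of these genes had an unadjusted limma p under 0.05. The 5 were Epm2aip1, Irs2, Pik3r1, Ppp1r1b and Stbd1, and the 7 were these with Hk2 and Khk. Among the 8 measured members, differences moved by more than the pooled SD within groups for Ppp1r3b and Slc37a4 without background correction, though by less than the gap between their knockout arrays. The cause was not tested. Dim probes such as those of Gyg lie close to background, which limits what they can show. No paired analysis was possible because the control labels carry no replicate number.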
